A study of Mus musculus with 18 samples.

Results

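The genes described here are 9 genes of catecholamine synthesis, vesicular storage and noradrenergic identity, *Th*, *Gch1*, *Ddc*, *Dbh*, *Slc18a1*, *Slc18a2*, *Phox2a*, *Hand2* and *Gata3*, out of 55414 features counted in mouse N2A cells. They were chosen by name, because *Dbh* and *Ddc* were seen to rise in these libraries, mostly with the siRNAs lettered B, so the levels of *Dbh* and *Ddc* are given as a description with no test. All 9 were among the 17901 genes with enough counts to be tested, and tests are given for the 7 other genes. N2A (Neuro-2a) is a mouse neuroblastoma line, a tumour type that arises from the neural crest. Cells were transfected for 72 h with 1 of 6 siRNAs, 2 each of a Scramble control, of *Fmr1* and of *Zfp598*, with 3 libraries of rRNA-depleted total RNA per siRNA and 18 libraries in all. Each target's pair is lettered A and B, and every group received a siRNA, so untransfected cells are not among them. *Fmr1* encodes FMRP, an RNA-binding protein that represses translation, and *Zfp598* encodes a ubiquitin ligase that recognizes collided ribosomes and starts no-go decay. The study used the knockdowns (KD) to look for transcripts that rise in both, as putative targets of FMRP-driven no-go decay. It named *Dbh* among them and reported that RT-qPCR of repeated knockdowns reproduced this with both siRNAs. It also reported greater stability of *Dbh* mRNA after either KD. A letter shared by siRNAs of different targets is a name and does not link them, and the comparisons below that share a Scramble siRNA share its libraries.

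Catecholamines are made from tyrosine in a short chain of enzymes. Tyrosine hydroxylase (*Th*) makes L-DOPA with tetrahydrobiopterin as cofactor, which GTP cyclohydrolase (*Gch1*) begins to make, aromatic L-amino acid decarboxylase (*Ddc*) turns L-DOPA into dopamine, and dopamine beta-hydroxylase (*Dbh*) turns dopamine into noradrenaline inside vesicles that the vesicular monoamine transporters (*Slc18a1*, *Slc18a2*) fill. The transcription factors Phox2a, Hand2 and Gata3 act in the development of sympathetic neurons and adrenal chromaffin cells and are known for their part in turning on *Th* and *Dbh* there.

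The sequences before the starts of the enzyme genes are shown because *Dbh* and *Ddc* had the same order of group means across the 6 siRNAs, and *Th* had another. The windows are the 250 bases before the canonical GENCODE M39 start of each gene on GRCm39, printed along the gene's own strand. Capitals mark matches, on either strand, to the letters of 6 motifs. These were TGACGTCA for the cAMP response element, with TGACG for the shorter site that lies within it. The letters TGANTCA, with any base at N, were a wider pattern than the AP-1 site, which has C or G there. The letters TAATTA stood for the homeodomain site. For the GATA site they were AGATAA, and for the E-box, which Hand2 and its relatives bind, CAGCTG. The E-box has other forms, which were not searched. For *Th* only 30 bases around its match are shown, because the wider window is annotated as untranslated sequence of other *Th* transcripts.
Ddc (chr11:11848151-11848400, minus strand): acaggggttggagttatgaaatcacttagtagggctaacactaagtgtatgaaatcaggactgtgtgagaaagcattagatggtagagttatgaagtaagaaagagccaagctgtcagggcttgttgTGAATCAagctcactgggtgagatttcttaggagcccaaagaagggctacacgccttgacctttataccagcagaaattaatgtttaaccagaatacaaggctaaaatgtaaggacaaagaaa
Dbh (chr2:27054995-27055244, plus strand): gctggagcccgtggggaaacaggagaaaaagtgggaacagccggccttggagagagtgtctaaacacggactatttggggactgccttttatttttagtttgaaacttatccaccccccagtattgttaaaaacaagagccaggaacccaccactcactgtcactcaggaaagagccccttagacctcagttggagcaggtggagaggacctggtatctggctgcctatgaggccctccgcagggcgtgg
Th (chr7:142453757-142453786, minus strand): gaggggcttTGACGTCAgcctggcctttaa
The *Th* window held TGACGTCA from base -26 before the start, a run found in 2.07% of 12796 promoters of tested protein-coding genes, and the shorter site on both strands within it. It also held TGATTCA, a match to the wider pattern TGANTCA, from base -191, outside the bases printed. The *Ddc* window held 1 match to that wider pattern, TGAATCA from base -123, and 4.35% of the promoters held a match to it. Both matches have A or T at N, so neither is the AP-1 site itself. The *Dbh* window held none of these runs of letters in either orientation. Other forms of the sites were not searched, so the window is not shown to lack them. Its 53.2% of G and C lay between the 40.8% of the *Ddc* window and the 63.2% of the *Th* window.

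The 18 libraries held 7674724 to 15414590 counts. The siRNA targets were lowered where the labels say so: *Fmr1* stood at 15.7 to 27.5 CPM (counts per 1000000, scaled by library size) in the 6 *Fmr1* KD libraries against 51.1 to 68.7 in the 6 Scramble libraries, and *Zfp598* at 32.2 to 48.7 CPM in *Zfp598* KD against 103 to 128. The neuroblast markers *Prph*, *Uchl1* and *Tubb3* had mean levels of 1450, 1110 and 462 CPM, whereas *Nefl*, *Nefm* and *Dcx* were below 0.5 CPM on average. Fmr1 siRNA B replicate 1 stands apart: its 4 Y-linked genes summed to 11.6 CPM against at most 0.149 in the 17 other libraries, and 7 of 9 stem cell markers were highest in it. Zfp598 siRNA A replicates 2 and 3 had 15.2% and 25.8% of their counts in 1 feature with no annotation entry, which took 5.00 to 11.1% elsewhere. The values of *Dbh* and *Ddc*, and those calls of the other members that rest on these libraries, are given with and without them, while those of other genes are given with all libraries unless stated.

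Per kilobase of exon, the mean level over all libraries was highest for *Hand2* (118.5 CPM per kb), followed by *Phox2a* (63.4), *Gch1* (36.8), *Slc18a2* (18.8) and *Gata3* (3.85). The chain's own enzymes were far lower, at 1.04 CPM per kb for *Th*, 0.611 for *Ddc* and 0.503 for *Dbh*, and *Slc18a1* was lowest at 0.399. In counts, *Dbh* had 7 to 80 per library, *Slc18a1* 18 to 53, *Ddc* 15 to 316 and *Th* 44 to 171, so the precision of these genes is limited by counting. The transcription factors, *Gch1* and *Slc18a2* had 611 counts or more in every library, except *Gata3* with 98 to 339. In these bulk samples, fewer cells of a type and less RNA per cell cannot be told apart.

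**Figure D1:**
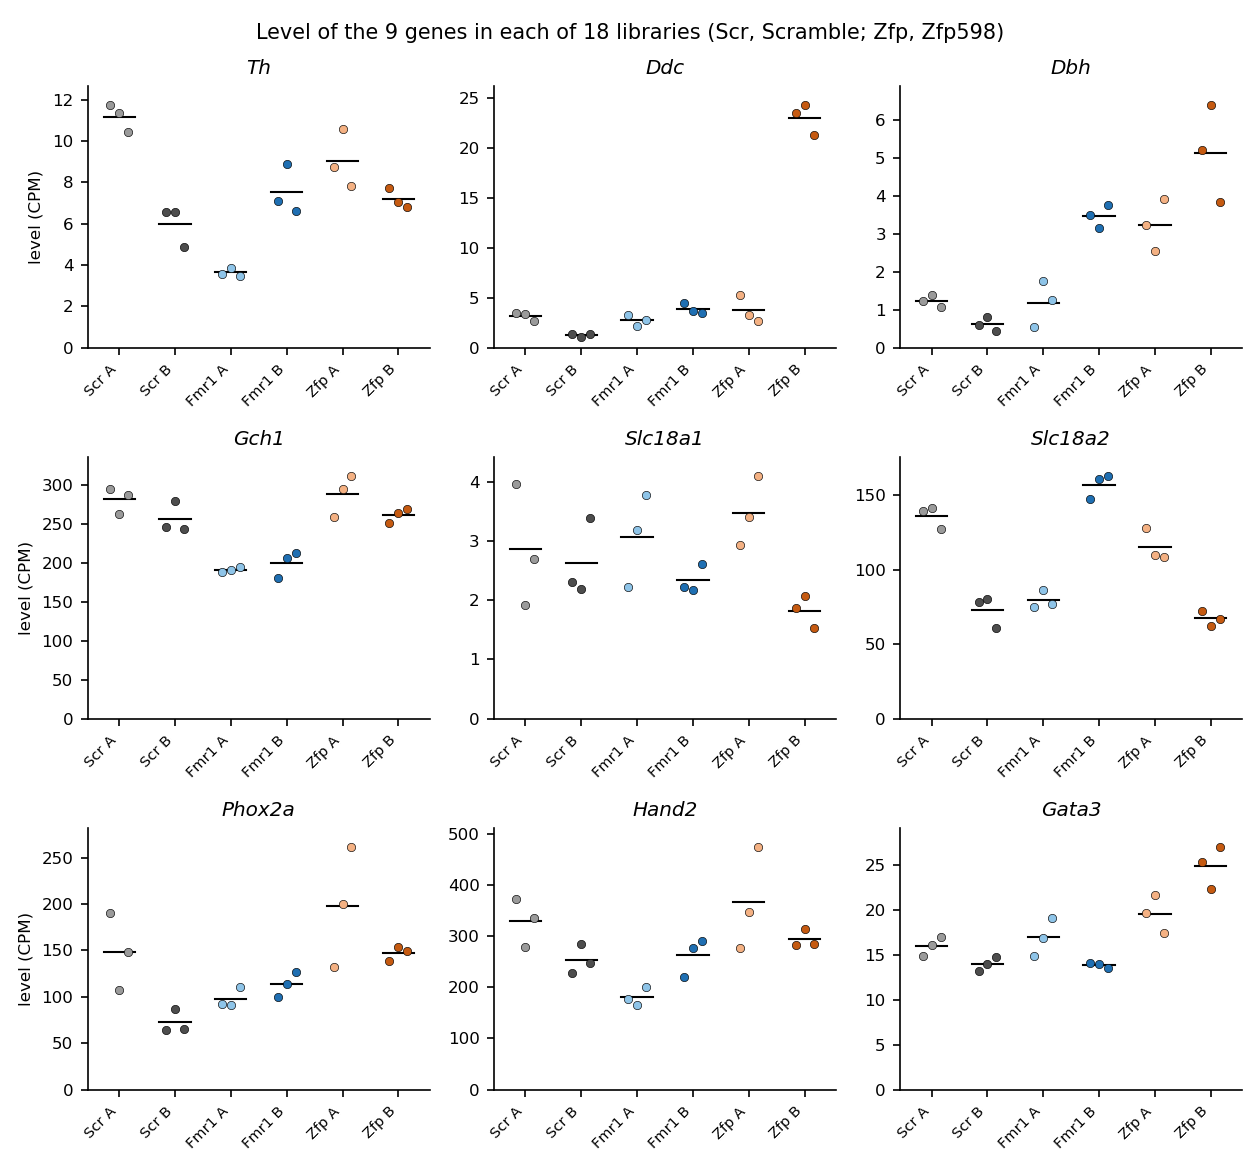
Level of each of the 9 genes in CPM (linear axes from 0) in the 18 libraries, by siRNA; points are libraries and bars the mean of 3. *Ddc* stands at 21.3 to 24.3 CPM with Zfp598 siRNA B and at or below 5.26 CPM elsewhere, whereas *Dbh* is higher with Fmr1 siRNA B and both *Zfp598* siRNAs and *Th* is highest with Scramble siRNA A.

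*Dbh*, the enzyme of the step from dopamine to noradrenaline (ENSMUSG00000000889, chromosome 2, 27055245 to 27074212 on GRCm39, plus strand), was low in all controls and higher with 3 of the 4 KD siRNAs. It was at 1.23, 1.39 and 1.06 CPM with Scramble siRNA A and at 0.592, 0.803 and 0.448 CPM with Scramble siRNA B. In *Fmr1* KD it was at 0.541, 1.76 and 1.26 CPM with siRNA A and at 3.51, 3.15 and 3.78 CPM with siRNA B. The siRNA A libraries of *Fmr1* KD overlapped both Scramble groups, while every siRNA B library lay above all 6 controls. In *Zfp598* KD it was at 3.23, 2.56 and 3.91 CPM with siRNA A and at 5.21, 6.40 and 3.83 CPM with siRNA B, and all 6 libraries lay above every control. The order of the group means ran from Scramble siRNA B through Fmr1 siRNA A, Scramble siRNA A, Zfp598 siRNA A and Fmr1 siRNA B to Zfp598 siRNA B, over an 8.38-fold range, and the ranges of 3 of the 5 neighbouring pairs overlapped.

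Against the Scramble siRNA of its letter, *Dbh* was 5.65-fold higher with Fmr1 siRNA B (log2 2.50 ± 0.35, SE, n = 3 against 3) and 8.36-fold higher with Zfp598 siRNA B (3.06 ± 0.34). With the A siRNAs the log2 differences were -0.05 ± 0.36 for *Fmr1* and 1.36 ± 0.33 for *Zfp598*. The control of the B siRNAs was the lower one, as *Dbh* differed by -1.01 ± 0.40 on the log2 scale between Scramble siRNA B and Scramble siRNA A. Against all 6 Scramble libraries together the log2 differences were 1.92 for Fmr1 siRNA B, 2.49 for Zfp598 siRNA B, 1.80 for Zfp598 siRNA A and 0.38 for Fmr1 siRNA A. With both siRNAs of a condition pooled, the median was 0.932 CPM in the Scramble libraries (0.448 to 1.39), 2.46 in *Fmr1* KD (0.541 to 3.78) and 3.87 in *Zfp598* KD (2.56 to 6.40), which gave log2 differences of 1.35 ± 0.39 and 2.20 ± 0.38. Without Fmr1 siRNA B replicate 1, the value for Fmr1 siRNA B stayed at 2.50 and the pooled *Fmr1* value was 1.20. Without Zfp598 siRNA A replicates 2 and 3, the value for Zfp598 siRNA A was 1.38 and the pooled *Zfp598* value 2.35.

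*Ddc*, the decarboxylase that makes dopamine from L-DOPA (ENSMUSG00000020182, chromosome 11, 11762602 to 11848150, minus strand), was high with 1 siRNA. With Zfp598 siRNA B it was at 23.5, 24.3 and 21.3 CPM, and with Zfp598 siRNA A at 5.26, 3.31 and 2.67 CPM. It was at 3.44, 3.38 and 2.62 CPM with Scramble siRNA A and at 1.32, 1.09 and 1.34 CPM with Scramble siRNA B. The *Fmr1* siRNAs gave 3.24, 2.17 and 2.74 CPM (A) and 4.52, 3.71 and 3.43 CPM (B). The 3 libraries of Zfp598 siRNA B were thus far above the 15 others, which spanned 1.09 to 5.26 CPM, and the 3 of Scramble siRNA B lay below all others. Between these ends the ranges of Fmr1 siRNA A, Scramble siRNA A, Zfp598 siRNA A and Fmr1 siRNA B each overlapped that of the next group in order of the means.

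The log2 difference of *Ddc* from the Scramble siRNA of the same letter was 4.19 ± 0.22 (SE) with Zfp598 siRNA B, an 18.2-fold difference, and 1.62 ± 0.24 with Fmr1 siRNA B. The A siRNAs gave 0.33 ± 0.23 for *Zfp598* and -0.21 ± 0.23 for *Fmr1*. Scramble siRNA B, the control of both B siRNAs, differed from Scramble siRNA A by -1.31 ± 0.25 on the log2 scale. Against all 6 Scramble libraries, the value was 0.84 for Fmr1 siRNA B and 3.40 for Zfp598 siRNA B. Pooling both siRNAs gave 0.60 ± 0.49 for *Fmr1* KD and 2.64 ± 0.48 for *Zfp598* KD, whose 6 libraries fall into 3 low and 3 high values by siRNA. Without Fmr1 siRNA B replicate 1 the difference with Fmr1 siRNA B was 1.51 and that of pooled *Fmr1* KD 0.49. Without Zfp598 siRNA A replicates 2 and 3 the difference with Zfp598 siRNA A, then 1 library, was 0.73 and that of pooled *Zfp598* KD 3.10.

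*Th*, the first and rate-limiting enzyme of the chain (ENSMUSG00000000214, chromosome 7, 142443466 to 142484865, minus strand), did not follow *Dbh* and *Ddc*. It was at 11.7, 11.3 and 10.4 CPM with Scramble siRNA A and at 6.58, 6.57 and 4.86 CPM with Scramble siRNA B. In *Fmr1* KD it was at 3.58, 3.87 and 3.48 CPM with siRNA A and at 7.08, 8.89 and 6.59 CPM with siRNA B. In *Zfp598* KD the values were 8.72, 10.6 and 7.83 CPM with siRNA A and 7.74, 7.03 and 6.81 CPM with siRNA B. Fmr1 siRNA A gave the lowest 3 libraries of all 18, and Scramble siRNA A overlapped 1 other group, Zfp598 siRNA A. The fall with Fmr1 siRNA A was 3.05-fold (log2 -1.61 ± 0.17, adjusted p = 6.45e-07) and also passed against all 6 Scramble libraries (-1.23, adjusted p = 0.00119). With Fmr1 siRNA B the log2 difference was 0.33 ± 0.16 (adjusted p = 0.155), and the effects of the *Fmr1* siRNAs differed by 1.94 ± 0.23 (adjusted p = 4.79e-06 for the interaction, 1.99 without Fmr1 siRNA B replicate 1). *Th* was also 1.86-fold lower with Scramble siRNA B than with Scramble siRNA A (log2 -0.89 ± 0.16, adjusted p = 0.000307). Neither pooled KD passed, with log2 differences of -0.61 ± 0.25 for *Fmr1* (adjusted p = 0.144) and -0.08 ± 0.25 for *Zfp598* (adjusted p = 0.904).

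*Gch1*, the enzyme that starts tetrahydrobiopterin synthesis (ENSMUSG00000037580, chromosome 14, 47391346 to 47426915, minus strand), fell with both *Fmr1* siRNAs. It was at 188, 190 and 195 CPM with Fmr1 siRNA A and at 180, 206 and 212 CPM with Fmr1 siRNA B, all 6 below every one of the 6 Scramble libraries at 244 to 294 CPM. The *Zfp598* siRNAs gave 259 to 311 CPM (A) and 251 to 269 CPM (B), within or near the Scramble range. In pooled *Fmr1* KD the fall was 1.38-fold (log2 -0.46 ± 0.08, adjusted p = 0.00155). It was -0.56 ± 0.09 with siRNA A (adjusted p = 6.97e-05) and -0.36 ± 0.09 with siRNA B (adjusted p = 0.00392), and the difference between these effects, 0.19 ± 0.12, did not pass (adjusted p = 0.29). Among the 7 tested genes, *Gch1* was the one that passed in the same direction with each siRNA of a target taken alone, though under 2-fold. It remained past the threshold without Fmr1 siRNA B replicate 1 (siRNA B -0.29, adjusted p = 0.0362, and pooled -0.44, adjusted p = 0.00511).

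Of the vesicular transporters, *Slc18a2* (VMAT2, the form known from neurons; ENSMUSG00000025094, chromosome 19, 59249238 to 59284695, plus strand) differed widely between siRNAs of the same target. It was at 140, 142 and 128 CPM with Scramble siRNA A and at 78.1, 80.6 and 60.9 CPM with Scramble siRNA B. With Fmr1 siRNA A it was at 75.2, 86.2 and 76.9 CPM and with Fmr1 siRNA B at 147, 161 and 163 CPM. The *Zfp598* siRNAs gave 128, 110 and 109 CPM (A) and 72.2, 62.5 and 67.1 CPM (B). Scramble siRNA A, Zfp598 siRNA A and Fmr1 siRNA B thus formed the upper values and the other 3 siRNAs the lower ones, with no overlap between the sets. Fmr1 siRNA A lowered it by the comparison of its letter (log2 -0.78 ± 0.10, adjusted p = 1.02e-05), Fmr1 siRNA B raised it (1.10 ± 0.10, adjusted p = 1.87e-07), and the Scramble siRNAs differed by -0.90 ± 0.10 (adjusted p = 2.9e-06). Against all 6 Scramble libraries both *Fmr1* calls were lost (-0.40, adjusted p = 0.171, and 0.59, adjusted p = 0.0502). With Zfp598 siRNA A the value of -0.24 (adjusted p = 0.142) passed without its replicate 1 (-0.32, adjusted p = 0.0259), and with Zfp598 siRNA B that of -0.12 (adjusted p = 0.429) passed against all 6 Scramble libraries (-0.64, adjusted p = 0.0288). The difference between the effects of the *Fmr1* siRNAs was 1.88 ± 0.14 (adjusted p = 2.36e-08), and 1.94 without Fmr1 siRNA B replicate 1, when the value with Fmr1 siRNA B was 1.16 (adjusted p = 1.04e-06). *Slc18a1* (VMAT1, the form known from endocrine cells; ENSMUSG00000036330, chromosome 8, 69490135 to 69541887, minus strand) was at 1.53 to 4.09 CPM in all libraries and passed in none of the 9 comparisons. Its largest differences were -0.53 ± 0.29 on the log2 scale with Zfp598 siRNA B (adjusted p = 0.199) and -0.80 ± 0.41 between the effects of the *Zfp598* siRNAs (adjusted p = 0.174).

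**Figure D2:**
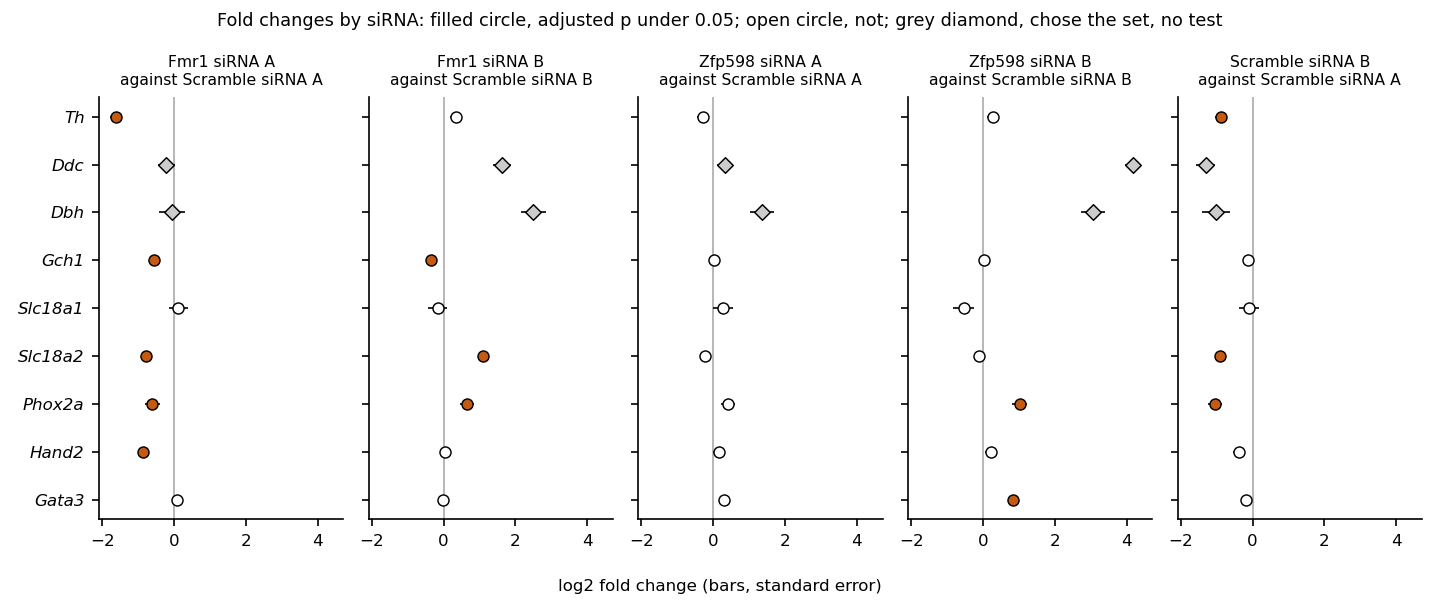
Log2 fold changes of the 9 genes for each KD siRNA against the Scramble siRNA of its letter and for Scramble siRNA B against Scramble siRNA A (edgeR, 3 against 3 libraries; bars are the standard error and may be smaller than the symbol). Filled circles passed an adjusted p of 0.05, open circles did not, and grey diamonds are *Ddc* and *Dbh*, which chose the set and have no test; the members lie at or below 0 in the comparison of the Scramble siRNAs.

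Among the transcription factors, *Phox2a*, the homeodomain factor known to activate *Dbh* (ENSMUSG00000007946, chromosome 7, 101467514 to 101471933, plus strand), was at 190, 107 and 148 CPM with Scramble siRNA A and at 64.5, 87.2 and 65.3 CPM with Scramble siRNA B. In *Fmr1* KD it was at 92.2, 91.0 and 110 CPM with siRNA A and at 99.6, 113 and 127 CPM with siRNA B. In *Zfp598* KD it was at 132, 200 and 261 CPM with siRNA A and at 139, 154 and 149 CPM with siRNA B. Scramble siRNA B gave the 3 lowest libraries, and the *Zfp598* KD libraries lay above those of *Fmr1* KD. It rose with Zfp598 siRNA B (log2 1.02 ± 0.20, adjusted p = 0.000683) and with Fmr1 siRNA B (0.65 ± 0.20, adjusted p = 0.0223) and fell with Fmr1 siRNA A (-0.60 ± 0.20, adjusted p = 0.0309). The Scramble siRNAs differed by as much (-1.04 ± 0.20, adjusted p = 0.00072). None of these 3 KD calls held against all 6 Scramble libraries, where the values were 0.42 (adjusted p = 0.275), 0.04 (adjusted p = 0.952) and -0.17 (adjusted p = 0.698). The calls of the *Fmr1* siRNAs were also lost without single libraries: that of siRNA A without Scramble siRNA A replicate 1 (-0.39, adjusted p = 0.211) or 3 (adjusted p = 0.0698) or Fmr1 siRNA A replicate 1 (adjusted p = 0.105) or 2 (adjusted p = 0.104), and that of siRNA B without Scramble siRNA B replicate 1 (adjusted p = 0.091) or 3 (adjusted p = 0.0848) or Fmr1 siRNA B replicate 2 (adjusted p = 0.0528) or 3 (adjusted p = 0.0878). The effects of the *Fmr1* siRNAs differed by 1.25 ± 0.28 (adjusted p = 0.00265), and by 1.34 without Fmr1 siRNA B replicate 1, when the value with Fmr1 siRNA B was 0.74 (adjusted p = 0.0248). Pooled *Zfp598* KD did not pass (0.64 ± 0.23, adjusted p = 0.133), and passed without Scramble siRNA A replicate 1 (0.87, adjusted p = 0.0288). With Zfp598 siRNA A the value was 0.41 ± 0.20 (adjusted p = 0.192), which passed without Zfp598 siRNA A replicate 1 (0.63, adjusted p = 0.00734) and against all 6 Scramble libraries (0.84, adjusted p = 0.0478). That value changed sign to -0.17 without Zfp598 siRNA A replicates 2 and 3, in a fit that takes the remaining library to vary like the other groups, and the difference between the effects of the *Zfp598* siRNAs then passed (1.21, adjusted p = 0.00182). That difference was 0.62 ± 0.28 with all libraries (adjusted p = 0.123), and it also passed without Scramble siRNA A replicate 2 (0.82, adjusted p = 0.0291) or Zfp598 siRNA A replicate 3 (0.87, adjusted p = 0.0173).

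*Hand2*, a basic helix-loop-helix factor of sympathetic neurons (ENSMUSG00000038193, chromosome 8, 57774011 to 57777677, plus strand), was lowest with Fmr1 siRNA A, at 177, 166 and 199 CPM. Fmr1 siRNA B gave 221, 277 and 289 CPM, Scramble siRNA A 371, 279 and 335 CPM, and Scramble siRNA B 227, 284 and 247 CPM. The *Zfp598* siRNAs gave 276, 348 and 473 CPM (A) and 282, 314 and 284 CPM (B). Only the range of Fmr1 siRNA A was clear of all other groups. *Hand2* fell with that siRNA (log2 -0.86 ± 0.15, adjusted p = 0.000279, and -0.69 with an adjusted p of 0.00381 against all 6 Scramble libraries). The effects of the *Fmr1* siRNAs differed by 0.92 ± 0.21 (adjusted p = 0.00374), and by 1.04 without Fmr1 siRNA B replicate 1. The difference between the Scramble siRNAs, -0.38 ± 0.15, did not pass (adjusted p = 0.0788), but did without Scramble siRNA A replicate 2 (-0.49, adjusted p = 0.0291), Zfp598 siRNA A replicate 1 (adjusted p = 0.0176) or Zfp598 siRNA A replicate 3 (adjusted p = 0.0216). Without Zfp598 siRNA A replicates 2 and 3 together that difference stayed at -0.38. The log2 difference with Zfp598 siRNA A, 0.15 with all libraries, was then -0.26, with 1 library left in that group.

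The levels of all 9 members were set beside the share of the feature that took up to 25.8% of the counts. That share ranged from 5.00 to 11.1% in Scramble siRNA A and from 5.67 to 25.8% in Zfp598 siRNA A. In both groups the 3 libraries had the same order in *Phox2a*, *Hand2*, *Gch1* and *Slc18a1* as in the share. In neither group did *Th*, *Ddc*, *Dbh*, *Slc18a2* or *Gata3* have that order. The 4 genes are named because they matched, and an order of only 3 libraries can match by chance. In Fmr1 siRNA A and Zfp598 siRNA B, where the share ranged 1.47-fold, the order was the same for *Phox2a* and *Hand2* but not *Gch1* or *Slc18a1* in the former, and for *Gch1* but not the other 3 genes in the latter. The neuroblast marker sum also ran higher there, at 3310 to 4710 CPM for Scramble siRNA A and 3510 to 6090 CPM for Zfp598 siRNA A against 2530 to 3110 CPM in the 4 other groups. The part of either in the results was not tested, and leaving the feature out before normalization changed no call of a member.

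*Gata3*, a zinc finger factor of sympathetic neurons and chromaffin cells (ENSMUSG00000015619, chromosome 2, 9861889 to 9894845, minus strand), rose in *Zfp598* KD. It was at 25.2, 22.3 and 26.9 CPM with Zfp598 siRNA B and at 19.6, 21.7 and 17.4 CPM with Zfp598 siRNA A, against 13.2 to 16.9 CPM in the 6 Scramble libraries. All 6 *Zfp598* KD libraries lay above all controls, with those of siRNA B highest. *Fmr1* KD gave 14.8 to 19.1 CPM (A) and 13.5 to 14.1 CPM (B), overlapping the controls. The rise in pooled *Zfp598* KD was 1.49-fold (log2 0.57 ± 0.12, adjusted p = 0.0188). It was 0.83 ± 0.12 with siRNA B (adjusted p = 2.49e-05, and 0.73 with an adjusted p of 9.79e-05 against all 6 Scramble libraries) and 0.30 ± 0.12 with siRNA A (adjusted p = 0.108, and 0.39 with an adjusted p of 0.0381 against all 6). The pooled call was lost without Scramble siRNA B replicate 1 (0.54, adjusted p = 0.0506), Zfp598 siRNA B replicate 1 (0.53, adjusted p = 0.054) or Zfp598 siRNA B replicate 3 (0.51, adjusted p = 0.0598), and became 0.66 (adjusted p = 0.00641) without Zfp598 siRNA A replicates 2 and 3. The effects of the *Zfp598* siRNAs differed by 0.53 ± 0.17 (adjusted p = 0.0281, and 0.56 with an adjusted p of 0.0488 without Zfp598 siRNA A replicates 2 and 3), a call that was lost without Scramble siRNA A replicate 3 (adjusted p = 0.0642), Scramble siRNA B replicate 1 (adjusted p = 0.0626), Zfp598 siRNA A replicate 3 (adjusted p = 0.0503), Zfp598 siRNA B replicate 1 (adjusted p = 0.0542) or Zfp598 siRNA B replicate 3 (adjusted p = 0.0726).

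Counted over the 7 genes that did not choose the set, pooled *Fmr1* KD had 0 higher (489 genes, 2.73% of all tested, were higher by the same test) and 1 lower (3.80% of all tested). Pooled *Zfp598* KD had 1 higher (0.916%) and 0 lower (1.04%). Fmr1 siRNA A had 0 higher (10.0%) and 5 lower (13.6%), with a median log2 difference of -0.60 beside 0.01 over all genes, and Fmr1 siRNA B had 2 higher (11.3%) and 1 lower (11.3%). Zfp598 siRNA A had 0 in either direction (6.30% higher and 5.64% lower over all genes), and Zfp598 siRNA B had 2 higher (12.4%) and 0 lower (14.4%). Scramble siRNA B against Scramble siRNA A had 0 higher (10.4%) and 3 lower (12.2%), with a median of -0.38. For the differences between the effects of the siRNAs of a target, *Fmr1* had 4 higher (12.2%) and 0 lower (9.65%), median 0.92, and *Zfp598* had 1 higher (10.1%) and 0 lower (11.9%), median 0.12. Over all genes these medians lay between -0.021 and 0.012. The count of 5 lower with Fmr1 siRNA A became 3 against all 6 Scramble libraries, and the 2 higher with Fmr1 siRNA B did not pass there.

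The study called a gene when it also differed by over 2-fold. By that rule pooled *Fmr1* KD had 0 of the 7 higher (0.665% of all tested) and 0 lower (0.335%), and pooled *Zfp598* KD 0 higher (0.251%) and 0 lower (0.212%). Fmr1 siRNA A had 0 higher (1.13%) and 1 lower (2.49%), which was *Th*, and Fmr1 siRNA B had 1 higher (3.04%), *Slc18a2*, and 0 lower (1.02%). *Phox2a* was the 1 gene higher with Zfp598 siRNA B (2.68%), where 0 were lower (2.42%), and Zfp598 siRNA A had 0 higher (0.659%) and 0 lower (0.765%). *Phox2a* was also the 1 gene lower with Scramble siRNA B than with Scramble siRNA A (2.12%), with 0 higher (1.50%). Between the effects of the *Fmr1* siRNAs 3 were higher (5.36%), *Th*, *Slc18a2* and *Phox2a*, and 0 lower (1.75%), and between those of *Zfp598* 0 were higher (3.76%) and 0 lower (3.64%).

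Across the 18 libraries, the log2 levels of *Dbh* and *Ddc* had a Pearson r of 0.76, those of *Ddc* and *Gata3* 0.78, those of *Dbh* and *Phox2a* 0.60 and those of *Dbh* and *Gata3* 0.56. *Th* had an r of 0.30 with *Dbh* and 0.17 with *Ddc*, and was closest to *Hand2* (0.76) and *Gch1* (0.67), which had an r of 0.84 with each other. The 18 points are 6 siRNAs of 3 libraries, so libraries of a siRNA share their transfected RNA. The tested genes most like *Ddc* were *Stra6* (r = 0.95), *Zdbf2* (0.95), *Stac* (0.93), *H2bc21* (0.91) and *C130073E24Rik* (0.90), all highest with Zfp598 siRNA B, where *Stra6* had a mean of 34.9 CPM against 10.2 to 14.0 in the other groups. Those most like *Dbh* were *Dok4* (0.94), *Eif3b* (0.92), *Stox2* (0.91), *Tmem64* (0.91) and *4930563E22Rik* (0.90), of which *Dok4* ran from 27.1 CPM with Scramble siRNA B to 53.3 CPM with Zfp598 siRNA B.

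Reads of a gene and of a gene that overlaps it on the other strand cannot be told apart where the strand setting is not stated. *Ddc* is overlapped by the antisense lncRNA *1700042O10Rik*, which was at 1.42, 1.12 and 0.0852 CPM with Zfp598 siRNA B and at or below 0.339 CPM elsewhere. *Dbh* is overlapped by the antisense lncRNA *Dbhos*, at most 0.447 CPM. *Slc18a2* and *Phox2a* are overlapped by the coding genes *Pdzd8* (84.4 to 129 CPM) and *Inppl1* (103 to 148 CPM), *Slc18a1* by *Atp6v1b2* (242 to 475 CPM) and *Hand2* by the lncRNA *Hand2os1* (123 to 269 CPM). Both lncRNAs that overlap the enzymes were lower than them, at a mean of 0.257 CPM beside *Ddc* and 0.125 CPM beside *Dbh*.

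Within 200 kb of *Ddc*, 2 genes were tested. *Grb10*, an imprinted adaptor gene 32.3 kb away, was at 3.72, 4.16 and 2.47 CPM with Zfp598 siRNA B and at or below 1.28 CPM elsewhere, apart from 4.12 CPM in Fmr1 siRNA B replicate 1. It rose with Zfp598 siRNA B (log2 3.89, adjusted p = 0.000754), and its call with Fmr1 siRNA B (2.89, adjusted p = 0.0127) was lost without that replicate (1.19, adjusted p = 0.309). *Fignl1*, 3.63 kb on the other side, did not pass with any KD siRNA (-0.02 with Zfp598 siRNA B, adjusted p = 0.937). Of 8 tested genes within 200 kb of *Dbh*, 6 rose with Fmr1 siRNA B (beside 11.3% of all genes) and 2 with Zfp598 siRNA B (12.4%), and 0 fell with either. In Scramble siRNA B, the control of both, 4 of the 8 were lower than in Scramble siRNA A and 0 higher (12.2% and 10.4%), with a median log2 difference of -0.38. With Fmr1 siRNA A 1 was higher and 2 lower (10.0% and 13.6%), and with Zfp598 siRNA A 1 was higher and 1 lower (6.30% and 5.64%). They include *Adamtsl2*, a secreted matrix protein gene 56.3 kb away, which rose with Fmr1 siRNA B (1.50, adjusted p = 1e-05) and Zfp598 siRNA B (0.84, adjusted p = 0.00379) and fell with Fmr1 siRNA A (-1.84, adjusted p = 6.66e-07) and Zfp598 siRNA A (-0.91, adjusted p = 0.00322). Its Scramble means differed by -1.92 on the log2 scale (adjusted p = 5.95e-07), from 16.9 CPM with siRNA A to 4.45 CPM with siRNA B, and its levels with Fmr1 siRNA B (12.6 CPM) and Zfp598 siRNA B (7.97 CPM) lay between these. *Sardh*, 4.19 kb from *Dbh*, rose with Fmr1 siRNA B (0.82, adjusted p = 0.000143) and Zfp598 siRNA A (0.52, adjusted p = 0.0148) and was at -0.02 with Zfp598 siRNA B (adjusted p = 0.932), where *Dbh* was highest.

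**Figure D3:**
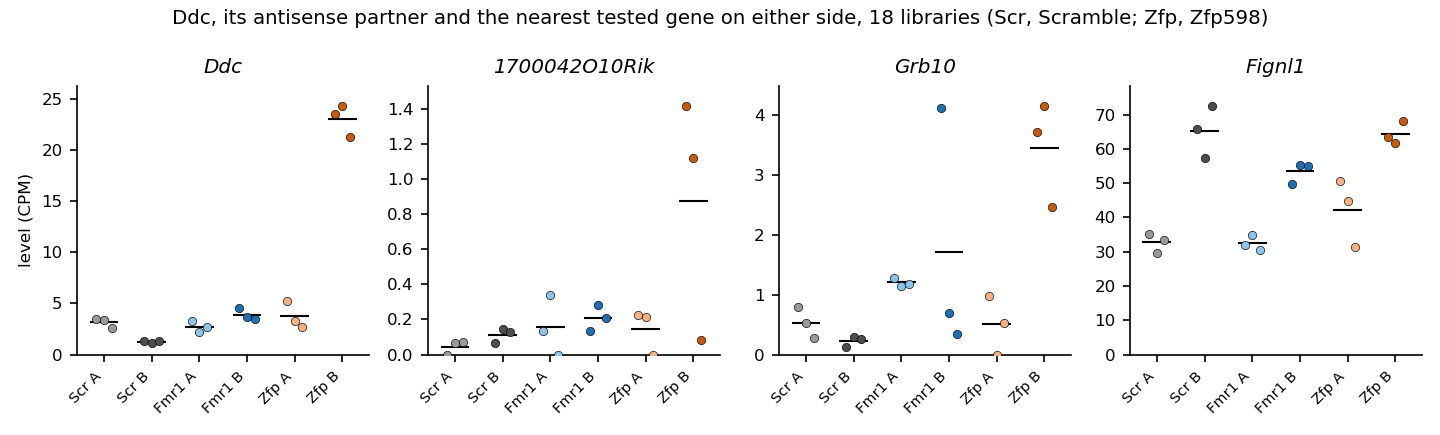
Level in CPM (linear axes from 0) of *Ddc*, its overlapping antisense lncRNA and the nearest tested genes on either side, by siRNA; points are the 18 libraries and bars the mean of 3. *Ddc* and *Grb10* are both high with Zfp598 siRNA B, *Grb10* also in 1 library of Fmr1 siRNA B at 4.12 CPM, and *Fignl1* is high with both Zfp598 siRNA B and its control, Scramble siRNA B (means of 64.5 and 65.3 CPM).

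Markers of other neuron types were read beside these results. Of 13 islet and enteroendocrine genes, cell types that also use *Ddc*, 7 had any count, and their sum was 24.1 to 25.9 CPM with Zfp598 siRNA B against 9.87 to 15.8 CPM in the other groups. The pancreatic polypeptide gene *Ppy* carried this, at 14.6 to 16.2 CPM with Zfp598 siRNA B and at most 3.20 CPM elsewhere, while *Ins1*, *Ins2*, *Gcg*, *Pdx1*, *Nkx2-2* and *Nkx6-1* were at 0 in every library. The part of such cells in the *Ddc* result was not tested. The 4 serotonergic markers, of cells that also need *Ddc*, summed to 18.4 to 28.3 CPM with no group clear of the rest but Scramble siRNA B, at 18.4 to 19.2. The cholinergic markers *Ache* and *Chrna3* (52.1 to 269 and 39.1 to 161 CPM), which sympathetic cells also express, made up nearly all of that list, whose sum was 321 to 371 CPM with Scramble siRNA A and 94.7 to 261 CPM elsewhere, with *Chat* at most 0.54 CPM. GABAergic markers summed to at most 0.877 CPM, Schwann and glial markers to at most 6.47 CPM and blood cell markers to at most 3.28 CPM. Fibroblast markers summed to 6.52 to 19.1 CPM, with *Lum* at 0 and *Col1a2* at most 0.074 CPM. The glutamatergic markers were at 0.679 to 5.55 CPM, nearly all *Slc17a7*.

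The rest of the noradrenergic programme was read from 10 lists of 84 other genes, 55 of them tested. Much of the chain around *Dbh* was not expressed: *Pnmt*, which makes adrenaline, *Maoa* and *Maob*, which break catecholamines down, and the noradrenaline and dopamine transporters *Slc6a2* and *Slc6a3* all had mean levels below 0.05 CPM. The tryptophan hydroxylases *Tph1* and *Tph2* were present at means of 9.24 and 13.0 CPM. Of 7 midbrain dopaminergic factors, 6 were not tested for lack of counts. Of the 55 genes, 4 were higher and 19 lower with Fmr1 siRNA A (median log2 difference -0.16, beside 10.0% higher and 13.6% lower over all genes) and 21 were higher and 7 lower with Fmr1 siRNA B (0.24, beside 11.3% each way). Zfp598 siRNA A had 8 higher and 10 lower (0.02, beside 6.30% and 5.64%) and Zfp598 siRNA B 16 and 16 (0.04, beside 12.4% and 14.4%), while Scramble siRNA B against Scramble siRNA A had 7 higher and 18 lower (-0.15, beside 10.4% and 12.2%). Against all 6 Scramble libraries, the genes that passed in either direction numbered 14 with Fmr1 siRNA B and 20 with Zfp598 siRNA B. In pooled *Fmr1* KD 3 were higher and 3 lower (beside 2.73% and 3.80% of all genes), and in pooled *Zfp598* KD 2 and 3 (0.916% and 1.04%). For the differences between the effects of the siRNAs, *Fmr1* had 19 higher and 6 lower (0.35, beside 12.2% and 9.65%). *Zfp598* had 11 and 13 (0.03, beside 10.1% and 11.9%). The lists share the controls of the comparisons above.

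**Figure D4:**
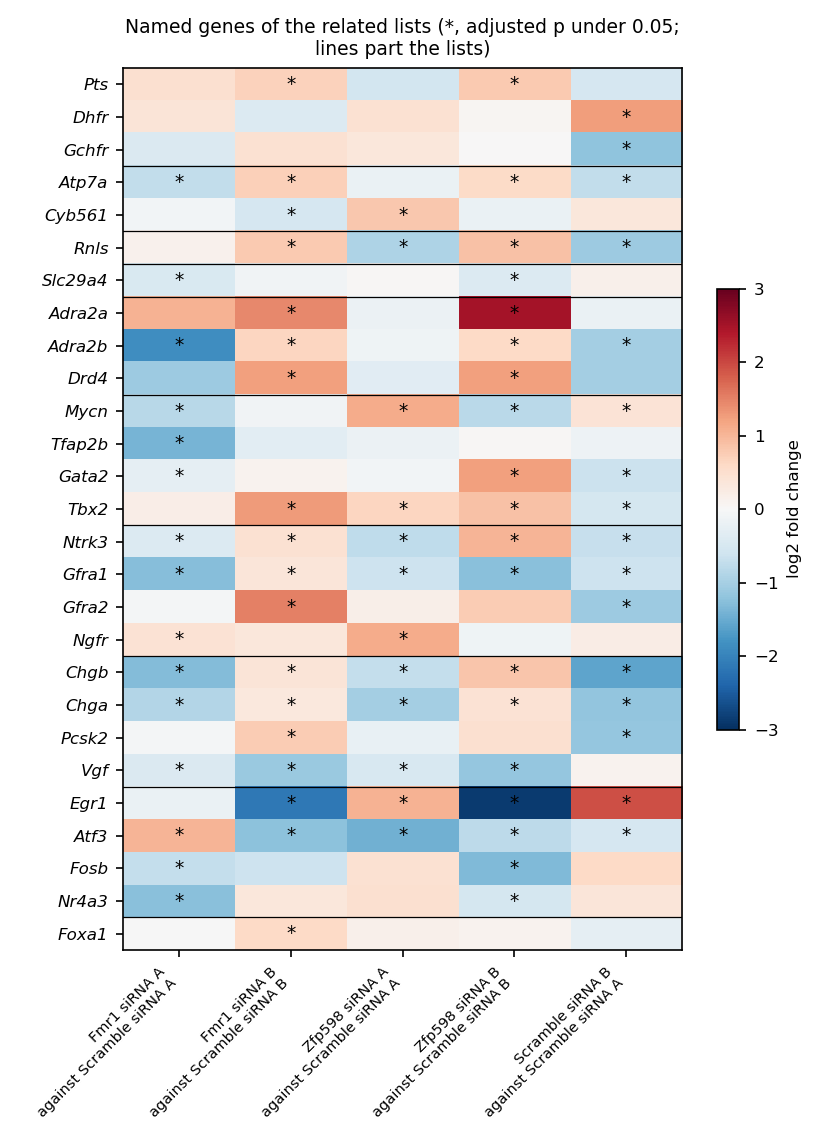
Log2 fold changes (colour) of the 27 named genes of the 10 related lists for each KD siRNA against the Scramble siRNA of its letter and for Scramble siRNA B against Scramble siRNA A; stars mark an adjusted p under 0.05 and lines part the lists. *Vgf* is lower with all 4 KD siRNAs, whereas *Chga* and *Chgb* are lower with the A siRNAs and higher with the B siRNAs.

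Among the genes that supply the enzymes' cofactors, *Pts*, the step after *Gch1*, rose with Fmr1 siRNA B (0.68) and Zfp598 siRNA B (0.78). With these siRNAs 2 and 1 of the 7 tetrahydrobiopterin genes passed higher (28.6% and 14.3%, beside 11.3% and 12.4% of all genes). Dbh needs copper and ascorbate. The copper pump gene *Atp7a* rose with Fmr1 siRNA B (0.72) and Zfp598 siRNA B (0.58) and fell with Fmr1 siRNA A (-0.74), with the Scramble siRNAs differing by -0.74. *Cyb561*, which regenerates ascorbate in the vesicle, rose with Zfp598 siRNA A (0.81) and fell with Fmr1 siRNA B (-0.51). Of 14 adrenergic and dopamine receptors 3 had enough counts, and all 3 rose with both B siRNAs (beside 11.3% of all genes with *Fmr1* and 12.4% with *Zfp598*), among them the presynaptic receptor gene *Adra2a* (2.49 with Zfp598 siRNA B, where it had a mean of 2.32 CPM, and 1.44 with Fmr1 siRNA B) and *Adra2b* (0.60 and 0.65, and -1.86 with Fmr1 siRNA A). Between the Scramble siRNAs *Adra2b* differed by -1.02 (adjusted p = 0.000733) and *Drd4*, the remaining receptor, by -1.01 (adjusted p = 0.0786). *Slc29a4*, a low-affinity monoamine transporter gene, fell with Fmr1 siRNA A (-0.46) and Zfp598 siRNA B (-0.42).

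Of 9 tested sympathoadrenal transcription factors outside the set, 5 rose and 0 fell with Fmr1 siRNA B (beside 11.3% each way over all genes), and 5 rose and 1 fell with Zfp598 siRNA B (12.4% and 14.4%). With Fmr1 siRNA A 0 rose and 4 fell (10.0% and 13.6%), and with Zfp598 siRNA A 3 rose and 1 fell (6.30% and 5.64%). In Scramble siRNA B against Scramble siRNA A 1 was higher and 2 lower (10.4% and 12.2%). *Gata2*, a relative of *Gata3*, rose with Zfp598 siRNA B (1.22, from 93.6 CPM with Scramble siRNA B to 218 CPM) and was at -0.09 with Zfp598 siRNA A, which did not pass. *Tbx2* rose in both pooled KDs (0.73 with *Fmr1* and 0.76 with *Zfp598*). *Mycn*, the neuroblastoma oncogene, rose with Zfp598 siRNA A (1.12) and fell with Zfp598 siRNA B (-0.82) and Fmr1 siRNA A (-0.84). Of 8 tested genes of the granules that store catecholamines, 0 rose and 5 fell with Fmr1 siRNA A (10.0% and 13.6%). With Fmr1 siRNA B 3 rose and 1 fell (11.3% each way). With Zfp598 siRNA A 1 rose and 4 fell (6.30% and 5.64%), and with Zfp598 siRNA B 2 rose and 4 fell (12.4% and 14.4%). Between the Scramble siRNAs 0 were higher and 3 lower with siRNA B (10.4% and 12.2%). *Chgb* was at 317 CPM with Scramble siRNA A and 106 CPM with Scramble siRNA B, fell with both A siRNAs (-1.30 with *Fmr1* and -0.72 with *Zfp598*) and rose with both B siRNAs (0.38 and 0.83), and *Chga* passed in the same directions. *Vgf*, a secreted neuropeptide precursor, fell with all 4 KD siRNAs, by 0.43, 1.11, 0.48 and 1.15 on the log2 scale, and in both pooled KDs (-0.74 and -0.79).

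Of 10 cAMP and activity response genes, 8 fell and 0 rose with Zfp598 siRNA B (beside 14.4% lower and 12.4% higher over all genes, median log2 difference -0.60). With Fmr1 siRNA B 4 fell and 0 rose (11.3% each way). In their control, Scramble siRNA B, 3 were higher and 1 lower than in Scramble siRNA A (10.4% and 12.2%, median 0.41). With Fmr1 siRNA A 2 were higher and 2 lower (10.0% and 13.6%), and with Zfp598 siRNA A 1 was higher and 2 lower (6.30% and 5.64%). The immediate early gene *Egr1* fell by 2.88 on the log2 scale with Zfp598 siRNA B and by 2.15 with Fmr1 siRNA B. It rose with Zfp598 siRNA A (1.04) and was higher with Scramble siRNA B than with Scramble siRNA A (1.93). *Fosb* fell with Zfp598 siRNA B (-1.32) and Fmr1 siRNA A (-0.72). *Atf3* rose with Fmr1 siRNA A (1.02) and fell with the 3 other KD siRNAs (-1.24, -1.43 and -0.79). Of 7 tested growth factor receptors of sympathetic cells, *Gfra1* fell with Zfp598 siRNA B (-1.25), Fmr1 siRNA A (-1.27) and Zfp598 siRNA A (-0.62) and rose with Fmr1 siRNA B (0.36), and *Ntrk3* rose with Zfp598 siRNA B (1.03) and Fmr1 siRNA B (0.45) and fell with both A siRNAs (-0.77 with *Zfp598* and -0.40 with *Fmr1*). Of the 7, 3 rose and 0 fell with Fmr1 siRNA B (beside 11.3% each way over all genes). With Fmr1 siRNA A 1 rose and 3 fell (10.0% and 13.6%), and with Zfp598 siRNA A 2 rose and 2 fell (6.30% and 5.64%). With Zfp598 siRNA B 1 rose and 2 fell (12.4% and 14.4%). In Scramble siRNA B 1 was higher and 5 were lower than in Scramble siRNA A (10.4% and 12.2%).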

How the data were processed

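RNA of 18 cultures of N2A cells was sequenced after transfection. Reads were trimmed with TrimGalore, checked with FastQC and aligned to GRCm39 with STAR, and the authors deposited whole-number counts of reads in exons per gene, made with featureCounts, which they had tested with DESeq2. Tool versions, annotation release, strand setting and the handling of multi-mapping reads were not given in the sources used here.

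Genes were filtered with filterByExpr (minimum count 10, minimum total 15), and 17901 remained. Library sizes were scaled by TMM and counts per 1000000 (CPM) used these sizes. Differences were tested with the quasi-likelihood test of edgeR 4.0.16 in R 4.3.3 (limma 3.58.1), with Benjamini-Hochberg adjustment over all genes tested, and a gene passed at an adjusted p under 0.05. The pooled comparisons used 3 conditions, and all others a model of 6 siRNA groups with 12 residual degrees of freedom. A difference between the effects of the siRNAs of a target is an interaction term, siRNA B minus siRNA A. Standard errors (SE) were worked back from that test, as the absolute log2 difference divided by the square root of its F statistic. They therefore rest on the spread fitted over all libraries of the model. Correlations used log2(CPM + 0.5). No 2 libraries of a siRNA agreed within sampling noise, so each counted as 1 replicate. In the model of 6 siRNA groups the p-values measure the spread between libraries of a siRNA. The pooled comparisons fitted no siRNA term and took the 6 libraries of a condition, 3 from each of 2 siRNAs, as independent. Their p-values mix the spread between siRNAs of a target with that between libraries of a siRNA. Annotation was GENCODE M39, which held 98.8% of the features.

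The members and gene lists were chosen with earlier results of these data known. From each list the text could name up to 4 genes that passed with over 2-fold in any comparison, by size of change, or the 2 most highly counted where none did. The tested genes within 200 kb of *Dbh* or *Ddc* and the 5 most correlated with each were also open to naming. Others are named as markers, overlapping genes, or examples of absent or present genes, chosen after their values were seen. On simulated data of 17901 genes for pooled *Fmr1* KD, 66 of 100 genes changed 2-fold and 97 of 100 changed 4-fold were recovered with 4 false calls. For Fmr1 siRNA B these numbers were 70 and 93, with 7 false calls. The simulated libraries held no difference between siRNAs of a condition, so the false calls of the pooled fit on libraries that group by siRNA were not tested. Alternatives were RLE scaling, DESeq2 1.42.0, no filter, a replicate block, the siRNA letter as covariate, all Scramble libraries as control, the 2-fold criterion, the most counted feature left out, each library left out in turn and, added after seeing the data, 2 libraries left out together.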

Additional observations from a re-analysis of the deposited data

Results flagged for a closer look

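The effects of the *Fmr1* siRNAs differed by the interaction term for 4 of the 7 tested genes of the set, with log2 values (siRNA B minus siRNA A) of 1.94 for *Th*, 1.88 for *Slc18a2*, 1.25 for *Phox2a* and 0.92 for *Hand2*. For the *Zfp598* siRNAs the term was 0.53 for *Gata3*. In each of these the Scramble siRNAs enter as controls. *Hand2* was at 473 CPM in Zfp598 siRNA A replicate 3, far from the other 5 *Zfp598* KD libraries for its range, and a gap of that size arises in about 1 in 20 groups by chance. That library also had the largest share of counts in the most counted feature, 25.8%, and the part of that share was not tested. Outside the genes compared, the Y-linked genes summed to 11.6 CPM in Fmr1 siRNA B replicate 1, against at most 0.149 CPM in the 17 other libraries.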

How the results depend on the processing

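RLE scaling, leaving out the most counted feature and the siRNA letter as covariate changed no call of a single gene. Against all 6 Scramble libraries the log2 differences for Fmr1 siRNA A, Fmr1 siRNA B, Zfp598 siRNA A and Zfp598 siRNA B were 0.32, 0.84, 0.85 and 3.40 for *Ddc* and 0.38, 1.92, 1.80 and 2.49 for *Dbh*, and members passing numbered 3 (Fmr1 siRNA A), 1 (Fmr1 siRNA B) and 2 (Zfp598 siRNA A). With that control 14 list genes passed with Fmr1 siRNA B and 20 with Zfp598 siRNA B. Without Zfp598 siRNA A replicates 2 and 3, *Ddc* was 0.73 with Zfp598 siRNA A and 3.47 for the difference between the *Zfp598* siRNAs, where 2 members passed, and 11 (*Fmr1* KD) and 9 (*Zfp598* KD) list genes passed. DESeq2 passed 8 list genes in *Zfp598* KD. Without a filter 1 member, *Phox2a*, passed with Zfp598 siRNA A (0.38, adjusted p = 0.0061). For the difference between the *Zfp598* siRNAs *Gata3* then no longer passed (adjusted p = 0.0771), while *Phox2a* did (0.65, adjusted p = 0.000277). *Hand2* then passed between the Scramble siRNAs (-0.37, adjusted p = 0.00231). The 2-fold criterion left 0 list genes in either pooled KD, 6, 7, 6 and 9 with Fmr1 siRNA A, Fmr1 siRNA B, Zfp598 siRNA A and Zfp598 siRNA B, 9 between the Scramble siRNAs, and 14 (*Fmr1*) and 13 (*Zfp598*) for the differences between siRNAs, and its member counts were 0, 0, 1, 1, 1 (Zfp598 siRNA B), 1 (Scramble) and 0 (difference between *Zfp598* siRNAs).

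The main fits did not pair libraries by replicate number. Of 45 same-numbered pairs of different siRNAs, 16 had deviations with r over 0.1 (median 0.047, -0.399 to 0.338). Pairs of unlike number had a median r of -0.025 (-0.427 to 0.563), and 11 of 18 libraries correlated best with their own number. These values lean towards a partial pairing, so a fit with a replicate block was also made. The replicate block gave 3 passing list genes for pooled *Fmr1* KD, 3 for pooled *Zfp598* KD and 2 passing members for the difference between the *Zfp598* siRNAs, *Th* being added (0.58, adjusted p = 0.0471).

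When single libraries were left out in turn, *Ddc* ranged over -0.05 to 0.47 with Zfp598 siRNA A and over 3.72 to 4.24 for the difference between the *Zfp598* siRNAs. *Dbh* ranged over 2.32 to 2.73 with Fmr1 siRNA B, -1.23 to -0.83 between the Scramble siRNAs and 2.21 to 2.97 for the difference between the *Fmr1* siRNAs. List genes passing ranged over 3 to 7 (*Fmr1* KD), 1 to 9 (*Zfp598* KD), 18 to 25 (Fmr1 siRNA A), 21 to 33 (Fmr1 siRNA B), 15 to 23 (Zfp598 siRNA A), 24 to 35 (Zfp598 siRNA B), 19 to 33 (Scramble), 22 to 30 and 21 to 31 (differences between siRNAs). Members passing ranged over 1 to 1, 0 to 2, 4 to 5, 2 to 3, 0 to 2, 2 to 2, 3 to 4, 4 to 4 and 0 to 2 in that order. Counts of 7 to 80 for *Dbh* and 18 to 53 for *Slc18a1* limit what could be detected. The causes of these changes were not tested.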
